A study of Bos taurus with 9 samples.

Results

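Abdominal adipose tissue was compared with the longissimus dorsi, the long skeletal muscle of the back, over all genes of a 1-colour bovine expression array. The groups came from the tissue labels, and the comparison used 6 of the 9 arrays of the study, 3 of abdominal fat and 3 of muscle. Every sample was from a Yan yellow cattle bull, 24 months of age. The bulls were reared alike and sampled at slaughter, and the labels name no treatment and no genetic change. The remaining 3 arrays held subcutaneous adipose tissue of bulls of the same breed and age. They added to the estimate of spread and were used to set the 2 fat depots side by side. The labels do not name the abdominal depot more closely. No label ties a sample to an animal, though the numbers that open the sample titles recur across tissues. Samples of different tissues may therefore come from 1 bull, and the p-values measure only the spread between these samples. The extraction text names adipose tissue only, and how the muscle RNA was prepared is not given in the sources used here.

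Skeletal muscle is built mostly of fused, striated fibres, in which myosin thick filaments pull on actin thin filaments anchored at Z-discs, calcium from the sarcoplasmic reticulum triggers each contraction, and mitochondria, glycogen and creatine phosphate supply ATP. White adipose tissue is filled by adipocytes that hold a single large triacylglycerol droplet, build it from imported and newly made fatty acids, release it by lipolysis and secrete hormones such as leptin and adiponectin. In ruminants adipose tissue is the main site of new fatty acid synthesis. Both tissues also contain blood vessels, connective tissue cells, nerves and immune cells, so a bulk sample mixes many cell types. Fewer cells of a type and less RNA in each of those cells cannot be told apart in such samples.

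Values are the log2 of deposited probe set intensities, and differences are abdominal fat minus muscle on that scale with a moderated standard error (SE). The highest array value was 14.09, and a group mean under 6 is treated as near background. The size of a difference that involves such a mean is not exact. Array medians lay between 5.75 and 5.79 in muscle and between 5.89 and 5.90 in abdominal fat. The labels were checked against markers: the summed intensity of 19 myofibre markers was 116851.3 to 132484.0 in muscle and 4030.7 to 7738.1 in abdominal fat, and that of 12 adipocyte markers was 12745.7 to 17635.1 and 52960.2 to 55735.4. Both labels were borne out by these levels. The myofibre sum takes the brightest probe set of each gene. For MYH7 and CKM that probe set was higher in abdominal fat (0.75 and 1.74), while another of each was lower (-7.29 and -7.70). The abdominal myofibre sums therefore include signal from disputed probe sets, and the sum was not taken without these genes. Control probe sets for the 3' and 5' ends of a transcript, whose ratio rises when RNA is degraded or copied incompletely, moved with the tissue. The 3'/5' ratio of the GAPDH control, a glycolytic enzyme, was 0.937 to 1.012 in muscle and 1.257 to 1.622 in abdominal fat, that of the actin control 0.963 to 1.036 and 2.235 to 5.687, and that of the elongation factor control 0.278 to 0.354 and 0.473 to 0.622. These ratios and the tissue cannot be told apart in this design.

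The tissues differed in a large share of the genes on the array. Of 24016 probe sets, 11196 (46.6%) passed an adjusted p of 0.05 in limma, 5650 (23.5%) higher and 5546 (23.1%) lower in abdominal fat. With 1 probe set for each of 9155 named genes, 2651 genes (29.0%) were higher and 2483 (27.1%) lower, 5134 in all (56.1%). The arrays of the tissues did not overlap for 13192 probe sets (54.9%) and 5800 genes (63.4%). The median difference was -0.04 over all genes, 1.15 over the genes called higher and -0.88 over those called lower. How the calls divided by direction depended on scaling: 50.5% of the called probe sets were higher as deposited and 40.1% with each array centred on its median, which moved the median difference of all probe sets from -0.07 to -0.19. The large differences were uneven. Among genes called higher, 488 differed by over 2, 20 by over 4 and none by over 6. Among genes called lower, 315 differed by over 2, 99 by over 4 and 42 by over 6. Near-background levels take part in many of these calls: 741 of the genes called higher had a muscle mean under 6, and 824 of those called lower had an abdominal mean under 6. Of the 5724 genes with both means over 6, 3569 (62.4%) were called.

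The 10 largest differences toward muscle included 4 genes of the Z-disc list and 2 of the thin filament list. This ranking and those below took only called genes whose muscle and abdominal arrays did not overlap, and left out provisional symbols. MYOZ2, which ties calcineurin to the Z-disc, read 13.44, 13.27 and 13.47 on the muscle arrays and 4.78, 6.42 and 2.89 on the abdominal arrays, a difference of -8.70 ± 0.66 (adjusted p = 6.18e-06). CKMT2, the mitochondrial creatine kinase of striated muscle, read 11.95, 11.99 and 12.26 in muscle and 3.20, 3.77 and 3.20 in abdominal fat (-8.68 ± 0.20, adjusted p = 5.61e-09). The muscle arrays agreed closely for both genes. No abdominal array came near them, though the ranking itself had required that the arrays not overlap. SMPX, a small cytoskeletal muscle protein (-8.39), KLHL41, which stabilises nebulin (-8.35), the stretch-responsive repeat protein ANKRD1 (-8.15), the muscle glycogen phosphorylase PYGM (-8.09) and the nicotinamide riboside kinase NMRK2 (-8.08) followed. NEB, the giant ruler protein of the thin filament (-7.84), the Z-disc protein MYOT (-7.75) and fast troponin T, TNNT3 (-7.75), completed the 10 largest. Every one of these 10 had an abdominal mean under 6, so the order among them rests on near-background values.

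Where both tissue means lay above that level, the size rests less on near-background values. Single abdominal arrays still fell under 6 for some of these genes. MB, myoglobin, the oxygen store of muscle, read 13.37, 13.42 and 13.41 in muscle and 7.34, 8.28 and 6.03 in abdominal fat (-6.18 ± 0.43, adjusted p = 3.91e-06). CA3, the abundant carbonic anhydrase of slow fibres, read 12.90, 12.90 and 13.02 against 6.78, 8.42 and 5.52 (-6.03 ± 0.56). Abdominal replicate 2 was the highest and replicate 3 the lowest for both. Slow troponin T, TNNT1 (-7.27 ± 0.72), the slow regulatory light chain MYL2 (-6.98), the heart and muscle fatty acid binding protein FABP3 (-6.88 ± 0.25) and slow troponin C, TNNC1 (-6.50 ± 0.65), were the other leading genes of this class. Skeletal actin, ACTA1, read 13.84 on every muscle array, near the top of the scale, and 8.96, 10.07 and 6.41 in abdominal fat (-5.36 ± 0.70). The 3 slow-fibre genes TNNT1, MYL2 and TNNC1 also spread widely in fat: MYL2 read 6.99, 8.85 and 3.55 on the 3 abdominal arrays.

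The 10 largest differences toward abdominal fat included 4 genes of the fat synthesis list, PCK2, ELOVL6, THRSP and PCK1. PCK2, the mitochondrial phosphoenolpyruvate carboxykinase, read 5.25, 4.74 and 6.03 in muscle and 10.45, 10.88 and 10.49 in abdominal fat (5.26 ± 0.30, adjusted p = 1.23e-06). ELOVL6, which lengthens palmitate, read 5.45, 3.89 and 6.75 against 10.85, 9.75 and 10.56 (5.02 ± 0.61). Leptin, LEP, the hormone that reports fat stores, read 5.49, 4.77 and 5.39 against 10.74, 9.58 and 10.03 (4.90 ± 0.34). For these 3 genes no muscle array was above 6.75 and no abdominal array below 9.58, but the ranking had required arrays without overlap. CD5L, a protein secreted by tissue macrophages (4.66 ± 0.46), and KLB, the co-receptor for endocrine fibroblast growth factors (4.62 ± 0.29), also had muscle means under 6. With both means over 6, the medium-chain acyl-CoA synthetase ACSM1 (4.77 ± 0.35), the lipogenic nuclear protein THRSP (4.48 ± 0.42), PPARG, the master regulator of adipocyte formation (4.47 ± 0.23), and cytosolic PCK1 (4.41 ± 0.64) led. PPARG read 6.19, 5.67 and 6.66 in muscle and 10.51, 10.63 and 10.80 in abdominal fat, and the abdominal values lay closer together than the muscle ones.

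**Figure D1:**
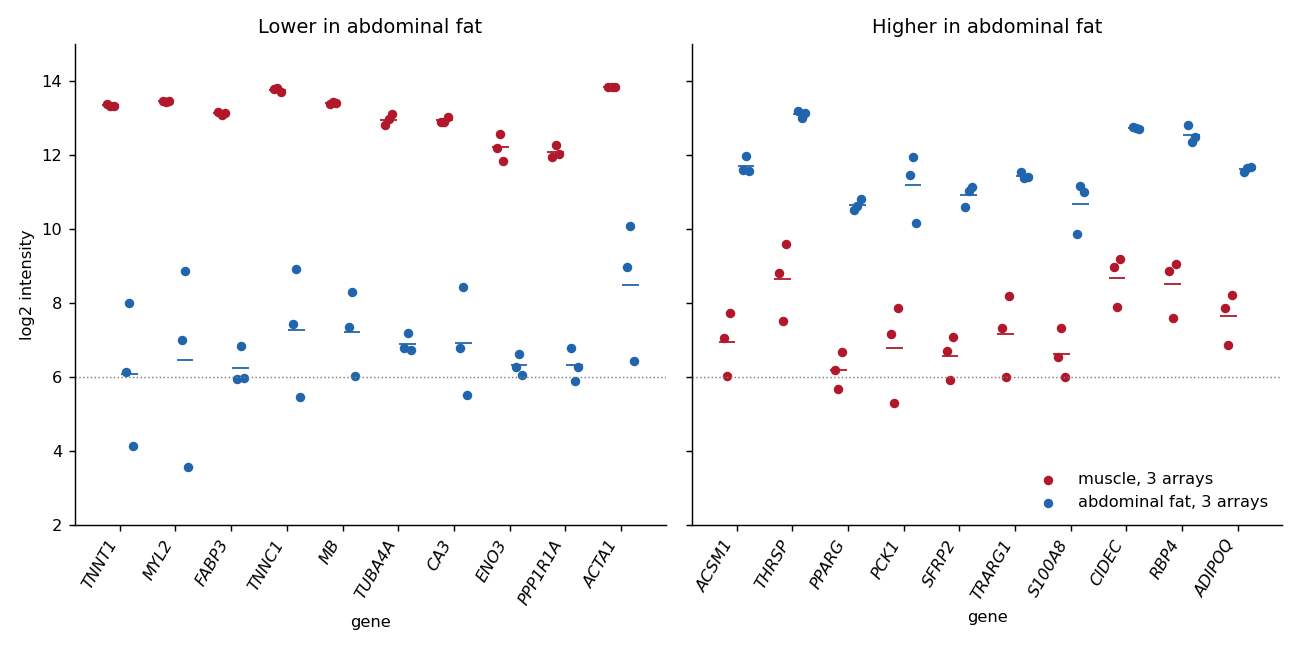
Log2 intensity of the 10 genes with the largest difference in each direction among called genes with both tissue means over 6 and no overlap of the arrays. Each point is 1 array (3 per tissue), short bars are tissue means and the dotted line marks the level of 6. Muscle arrays sit together near 13 to 14 for MB and ACTA1 while abdominal arrays spread, and for PPARG and ADIPOQ the abdominal arrays sit together while the muscle arrays spread.

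The contractile apparatus was lower in abdominal fat almost as a block. Of 12 measured thick filament genes, 10 were lower, 1 higher and 1 not called (median -5.83, against -0.04 over all genes). Of 13 thin filament genes, 11 were lower and 2 higher (median -6.50), and all 17 Z-disc and fibre scaffold genes were lower (median -5.23). The essential light chain MYL1 (-7.63), myosin binding protein MYBPC1 (-7.52) and the fast myosin heavy chain MYH1 (-7.48) led the thick filament. ACTN2 and ACTN3, the sarcomeric actinins that crosslink thin filaments at the Z-disc, differed by -6.93 and -5.68. Desmin, DES, the intermediate filament of muscle cells, read 9.15, 9.19 and 8.78 in abdominal fat and averaged 13.07 in muscle (-4.03 ± 0.23). Desmin is also made in smooth muscle, and its abdominal level stayed well above background. The thin filament members that were higher in abdominal fat were the tropomyosins TPM1 (1.95) and TPM3 (1.30), which non-muscle cells also use.

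The slow myosin heavy chain MYH7 depends on the probe set. Its brightest probe set averaged 10.66 in muscle and 11.41 in abdominal fat, with no overlap of the arrays (0.75 ± 0.24, adjusted p = 0.027), and it was no longer called without muscle replicate 1 (0.78, adjusted p = 0.0559), muscle replicate 3 (0.64, adjusted p = 0.0763), abdominal replicate 1 (0.73, adjusted p = 0.0715) or abdominal replicate 2 (0.57, adjusted p = 0.0988). A second probe set named MYH7 read 13.45 in muscle and 6.16 in abdominal fat on average, a difference of -7.29. The brightest probe set is picked over 9 arrays of which 6 are fat, so the choice can favour a probe set that is bright in fat. Among all genes, 139 had probe sets called in opposite directions, and CKM, CACNB1, ACTN4, ASPH, COX6A1, EGR1, IGF2, LDHA, PC and SOD3 were among the genes named here.

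Calcium handling genes followed the filaments, with 9 of 12 lower, 2 higher and 1 not called (median -4.26). Sarcolipin, SLN, a small inhibitor of the calcium pump, read 12.87, 13.19 and 12.66 in muscle and 5.50, 5.51 and 4.90 in abdominal fat (-7.60 ± 0.23). ATP2A1, the fast-fibre calcium pump (-7.29), JPH1, which holds the reticulum against the transverse tubule (-7.13), and STAC3, a partner of the voltage sensor (-6.11), were lower as well. The members called higher were ASPH (1.88) and the calcium channel subunit CACNB1 (1.76); another probe set of CACNB1 differed by -5.69. In the sarcolemma complex 3 of 6 genes were lower, with SGCA, alpha-sarcoglycan, at -3.48, DTNA, a dystrobrevin, at -1.87 and SGCB at -0.97, while the membrane repair protein MYOF was higher (2.43).

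Genes of the neuromuscular junction were lower in 6 of 8 cases, higher in 1 and not called in 1 (median -2.21). The acetylcholine receptor subunits CHRNA1 (-2.96), CHRND (-2.66) and CHRNG (-2.32) were among them, and so was SCN4B, a sodium channel subunit (-5.29). CHRNG belongs to the fetal form of the receptor, and its muscle values were 6.81, 6.50 and 6.90, little above the near-background level. COLQ, the collagen tail that anchors acetylcholinesterase, went the other way: it read 6.88, 7.04 and 6.55 in muscle and 8.47, 9.07 and 8.28 in abdominal fat (1.79 ± 0.22, adjusted p = 0.000118). No abdominal array overlapped a muscle array for COLQ.

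Of 8 myogenic transcription factors, 7 were lower and 1 was not called (median -1.96). MYF6, the regulator most abundant in mature fibres, read 11.83, 11.85 and 11.71 in muscle and 6.09, 4.85 and 5.22 in abdominal fat (-6.41 ± 0.28). MYOG, which drives myoblast fusion (-2.64), the serum response factor SRF (-2.17) and TEAD4 (-1.97) had smaller differences from muscle means of 7.2 to 7.5. All 9 muscle ubiquitin ligases and adaptors were lower (median -3.80), with KLHL41 ahead of TRIM54, a partner of the titin-bound ligases (-5.65), ASB5 (-4.44) and FBXO40, which targets the insulin receptor substrate (-4.38). Secreted factors of muscle were mixed, with 4 of 12 higher, 3 lower and 5 not called, near the 29.0% higher and 27.1% lower of all genes. Myostatin, MSTN, the brake on muscle growth, read 4.71, 7.21 and 4.22 in muscle and 2.04, 2.03 and 1.92 in abdominal fat (-3.38 ± 0.60), so only muscle replicate 2 was above 6. Its natural inhibitor follistatin, FST, was higher in abdominal fat (1.09 ± 0.26).

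The myofibre markers were not even among the abdominal arrays. Replicate 2 held the highest abdominal value for 14 of the 19 genes and replicate 3 the lowest for 15, with array medians of 5.62, 6.10 and 4.84 for replicates 1, 2 and 3. In the subcutaneous arrays the highest values were shared, 6, 8 and 5 genes on the 3 arrays. The same uneven pattern was seen for adipocyte markers in muscle: replicate 3 was the highest for 9 of 12 genes and replicate 2 the lowest for 9, with medians of 8.66, 7.87 and 9.01. ADIPOQ, adiponectin, an insulin-sensitising hormone made by adipocytes, illustrates it, with 7.85, 6.86 and 8.20 in muscle and 11.55, 11.66 and 11.67 in abdominal fat (3.99 ± 0.29). CIDEC, which joins lipid droplets, read 8.96, 7.89 and 9.20 in muscle and 12.76, 12.74 and 12.70 in abdominal fat (4.05 ± 0.28). The share of fat cells in the muscle samples, or of muscle fibres in the fat samples, was not measured, and its part in any difference was not tested.

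**Figure D2:**
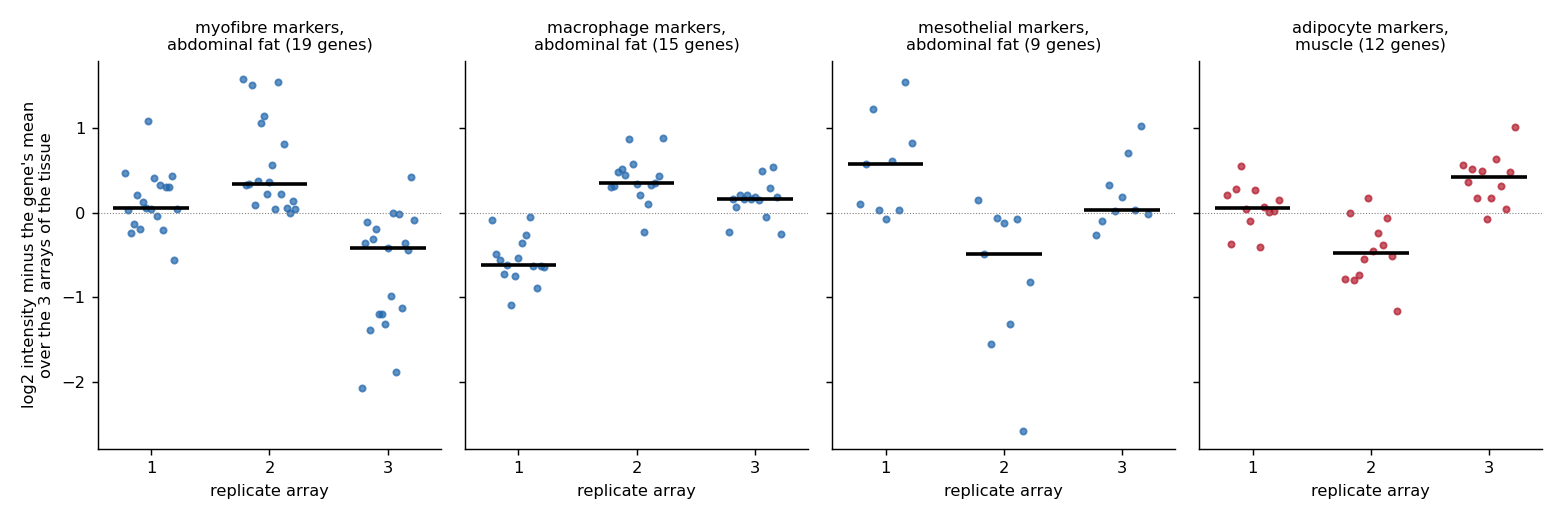
Log2 intensity of each marker gene minus its mean over the 3 arrays of the tissue, for myofibre (19 genes), macrophage (15) and mesothelial (9) markers in abdominal fat and adipocyte markers (12) in muscle; points are genes and bars are medians. Myofibre markers were mostly highest on abdominal replicate 2 and lowest on replicate 3, macrophage markers mostly lowest on replicate 1, mesothelial markers lowest on replicate 2, and adipocyte markers in muscle highest on replicate 3.

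Mitochondrial genes were lower in abdominal fat by smaller steps than the filaments. Of 23 import and cristae genes, 18 were lower, 1 higher and 4 not called (median -0.80). APOO, a cristae junction protein, read 10.75, 11.19 and 10.51 in muscle and 8.28, 8.41 and 8.38 in abdominal fat (-2.46 ± 0.17), and the translocase subunits TIMM17B (-1.71), TIMM10 (-1.49) and TIMM22 (-1.45) were lower too. TOMM5, a small outer membrane subunit, was higher (0.63 ± 0.15). Of 18 coenzyme Q and haem synthesis genes, 13 were lower, 1 higher and 4 not called (median -0.67). COQ10A, a coenzyme Q carrier (-3.42), ALAS1, which starts haem synthesis (-2.00), COQ3 (-1.79) and COX10, an enzyme on the route to haem A (-1.69), led. The haem enzyme CPOX was higher (1.12). Without any 1 muscle array 2 members were called higher.

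The regulators of mitochondrial number gave 6 lower, 2 higher and 5 not called of 13, where 27.1% of all genes were lower and 29.0% higher. PPARGC1A, the coactivator that drives mitochondrial biogenesis, read 6.82, 7.79 and 8.57 in muscle and 4.64, 5.13 and 5.06 in abdominal fat (-2.78 ± 0.36), and its muscle partner PERM1 differed by -3.32. The fusion protein MFN2 (-1.69) and the transcription factor TFB2M (-1.59) were lower. The members called higher, MFF (0.47), which recruits the fission machinery, and NRF1 (0.52), were weakly supported. MFF lost its call in 5 of the 6 repeats that left out 1 array, with an adjusted p up to 0.143 without muscle replicate 1, and NRF1 lost it without abdominal replicate 1 (adjusted p = 0.0591) or 2 (adjusted p = 0.0522). With centred arrays the list gave 1 higher and 7 lower.

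The mitochondrial carriers split between family members, with 11 of 21 lower, 5 higher and 5 not called. SLC25A4, the ADP/ATP carrier of heart and muscle, read 12.88, 12.92 and 13.07 in muscle and 10.20, 10.08 and 10.64 in abdominal fat (-2.65 ± 0.16). Its relatives SLC25A5 (1.87 ± 0.32) and SLC25A6 (1.93 ± 0.18), made in most tissues, were higher in abdominal fat. SLC25A1, which exports citrate for fatty acid synthesis, was higher as well (1.32 ± 0.31). The uncoupling proteins differed from one another. UCP3, the muscle form, read 8.21, 9.58 and 6.37 in muscle and about 3 in abdominal fat (-5.09 ± 0.61), while UCP2 was 0.60 higher. UCP1, the heat-producing protein of brown fat, read 3.22, 3.79 and 3.22 in muscle and 3.22, 5.48 and 2.88 in abdominal fat, was near background on every array and was not called (0.45 ± 0.55, adjusted p = 0.53).

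Of 13 genes around pyruvate dehydrogenase, 8 were lower, 1 higher and 4 not called (median -0.81). The complex subunits DLAT (-1.50) and PDHB (-1.47) and the activating phosphatase PDP1 (-1.50) were lower, and pyruvate carboxylase, PC, which refills the citrate cycle and feeds fat synthesis, was higher (2.12 ± 0.24), joined by 1 more member without muscle replicate 3. Amino acid breakdown gave 9 of 26 lower, 5 higher and 12 not called, where 27.1% of all genes were lower and 29.0% higher, and its median of -0.04 equalled that of all genes. The aminotransferases GOT1 (-2.50), GPT (-2.35) and GOT2 (-1.90) were lower. BCAT2, which starts the breakdown of branched-chain amino acids, read 6.04, 5.81 and 6.43 in muscle and 8.70, 8.87 and 8.30 in abdominal fat (2.53 ± 0.23), and MCCC1 (1.58) and PCCB (1.26), carboxylases of the same route, were higher too. PCCA was called higher (0.48, adjusted p = 0.0494) and lost the call in 5 of the 6 repeats that left out 1 array, with an adjusted p up to 0.159. Without muscle replicate 2, abdominal replicate 2 or abdominal replicate 3, 3 members of this list were called higher in place of 5, and with centred arrays 3 were higher and 11 lower.

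Enzymes of nucleotide and phosphate energy gave 5 lower, 4 higher and 4 not called of 13, where 27.1% of all genes were lower and 29.0% higher. CKB, the creatine kinase of brain and other soft tissues, read 7.43, 6.98 and 7.58 in muscle and 10.59, 10.09 and 11.08 in abdominal fat (3.25 ± 0.38). AK1, adenylate kinase (-3.07), and ADSS1, the muscle enzyme of the purine nucleotide cycle (-3.49), were lower, while AMPD2, the non-muscle AMP deaminase (1.26), and NT5E, which makes adenosine outside cells (1.41), were higher. CKM, the muscle creatine kinase, again depends on the probe set: the brightest differed by 1.74 and the other, at 13.27 in muscle and 5.57 in abdominal fat, by -7.70.

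Many of these genes belong to families in which muscle uses its own form. Of 34 pairs of a muscle form and another form, both members were measured in 24. The other form is not always a widely used one, since FABP3 is paired with the adipocyte carrier FABP4. In 20 of these pairs the muscle form was lower and the other form higher in abdominal fat, where 27.1% of all genes were called lower and 29.0% higher. PFKM is paired with both PFKP and PFKL, so the pairs are not all separate muscle forms. The glycogen phosphorylases stood far apart, PYGM at -8.09 and the liver form PYGL at 2.26 ± 0.28. Phosphoglycerate mutase (PGAM2 -6.65, PGAM1 2.05), enolase (ENO3 -5.89, ENO1 0.77) and phosphofructokinase (PFKM -4.46, PFKL 1.14, PFKP 1.97) divided the same way in glycolysis. ENO3 read 12.19, 12.58 and 11.85 in muscle and 6.27, 6.63 and 6.05 in abdominal fat, while ENO1 read 10.90, 10.93 and 11.21 against 11.71, 11.81 and 11.83. Neither enolase had overlapping arrays, and the common form differed by much less.

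Respiratory chain subunits with tissue forms also divided. COX6A2 read 9.71, 10.13 and 9.80 in muscle and 4.46, 4.28 and 4.53 in abdominal fat (-5.46 ± 0.14), and COX7A1 differed by -3.80 ± 0.14. Their common counterparts COX6A1 (2.55 ± 0.13) and COX7A2 (0.73 ± 0.18) were higher, as was COX8A (1.67 ± 0.14) against COX8B (-0.72 ± 0.14). Another COX8B probe set, at 11.87 in muscle and 6.94 in abdominal fat, differed by -4.92, and a near-background one of COX6A1 by -2.11. In the cytoskeleton the pairs FLNC (-4.69) and FLNA (2.23), TMOD4 (-7.30) and TMOD3 (2.21), MYLK2 (-2.13) and MYLK (2.44), and ACTN3 and ACTN4 (2.71) split alike. The common actin ACTB read 11.61, 11.36 and 11.83 in muscle and averaged 13.01 in abdominal fat (1.42 ± 0.13). In fatty acid metabolism, ACACB, the carboxylase that restrains mitochondrial fatty acid uptake, differed by -3.42 ± 0.16 and ACACA, the lipogenic carboxylase, by 1.32 ± 0.32.

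Protein synthesis had such pairs too. RPL3L, a ribosomal protein made in striated muscle in place of RPL3, read 10.57, 10.71 and 10.17 in muscle and 4.27, 4.30 and 4.37 in abdominal fat (-6.17 ± 0.15), and RPL3 read 12.09, 11.66 and 11.83 against 12.53, 12.71 and 12.72 (0.79 ± 0.15). The elongation factor EEF1A2, confined to muscle and neurons in adults, differed by -5.16 ± 0.20 and its common form EEF1A1 by 0.74 ± 0.12. The exceptions to the split were few. In CKMT2 with CKMT1A (-0.08, adjusted p = 0.811) and MYL1 with MYL6 (0.39, adjusted p = 0.0755) the second member was not called. The glucose transporters SLC2A4 (-1.51) and SLC2A1 (-0.88) were both lower, and CKM and CKB were both higher by their brightest probe sets.

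**Figure D3:**
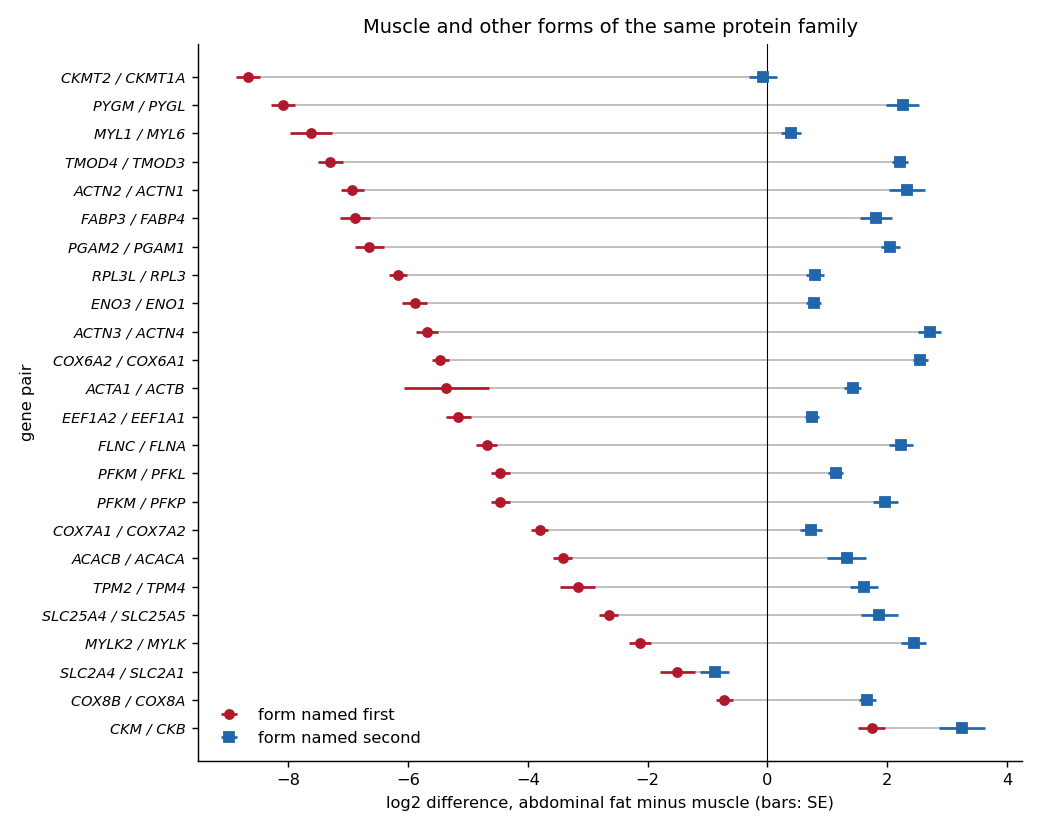
Log2 difference (abdominal fat minus muscle, bars are SE) of both members of the 24 measured pairs, the form named first in red circles and the form named second in blue squares. The muscle form lies left of 0 in every pair except CKM with CKB, and in 20 pairs the other form was called on the right.

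Outside these forms, the cytosolic ribosomal proteins were close between the tissues. Of 66 cytosolic ribosomal proteins, 58 were not called, 5 were higher and 3 lower (median 0.11), where 56.1% of all genes were called. RPS29 read 13.29, 13.23 and 13.11 in muscle and 13.24, 13.26 and 13.12 in abdominal fat (-0.01 ± 0.11), near the top of the scale. Besides RPL3L and RPL3 the calls included RPLP2 (0.53), RPL26 (0.45), RPL12 (0.41), RPS28 (-0.64) and RPS19 (-0.78), whose probe set was near background. RPL26 lost its call without abdominal replicate 2 (0.39, adjusted p = 0.0558), and RPL12 without abdominal replicate 2 (0.34, adjusted p = 0.098) or muscle replicate 3 (0.34, adjusted p = 0.0617). The balance of the ribosomal calls depended on the scaling, with 2 higher and 3 lower on centred arrays, 8 and 3 after quantile normalization, and 12 and 3 with 32 added to each intensity. Without abdominal replicate 2 there were 2 higher calls in place of 5, and without muscle replicate 3 there were 3 higher and 5 lower. Of 41 translation factors, 10 were lower, 4 higher and 27 not called (median -0.15). Their share lower was near the 27.1% of all genes, and 29.0% of all genes were higher. EIF3J (-1.51), EIF2A (-1.28) and EIF4E, the cap-binding protein (-1.12), were lower, and the helicase EIF4A1 (0.96) and the stress kinase EIF2AK3 (0.88) were higher. Lower calls numbered 6 without abdominal replicate 1 or 3.

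Cytosolic chaperones leaned to muscle and secretory chaperones to fat. Of 33 cytosolic chaperones and small heat shock proteins, 20 were lower, 3 higher and 10 not called (median -0.61). HSPB6 read 11.15, 11.26 and 11.92 in muscle and 6.84, 6.64 and 7.02 in abdominal fat (-4.61 ± 0.22), and HSPB2 (-4.27), DNAJA4 (-3.73) and HSPB8 (-3.31) were lower as well. DNAJB6 (1.75), DNAJB1 (0.93) and mitochondrial HSPD1 (0.56) were the higher members. In the endoplasmic reticulum, 19 of 39 genes were higher, 6 lower and 14 not called (median 0.48). The transport protein SEC22B (1.88), the prolyl isomerase FKBP11 (1.87), the channel subunit SEC61A1 (1.78) and the disulfide isomerase PDIA3 (1.56) led. The stress factor ATF4 (-0.92), DNAJB9 (-0.62) and HERPUD1 (-0.60), which is induced by unfolded proteins, were lower. SPCS3 (-0.86) lost its call in 4 of the 6 repeats that left out 1 array, with an adjusted p up to 0.101 without muscle replicate 1. Without muscle replicate 1 or abdominal replicate 3, 3 of the reticulum genes were called lower in place of 6.

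Lysosomal genes were higher in abdominal fat, 33 of 50, with 5 lower and 12 not called (median 0.94). LIPA, which hydrolyses cholesteryl esters and triacylglycerol in lysosomes, read 6.79, 7.16 and 7.07 in muscle and 9.58, 10.82 and 10.52 in abdominal fat (3.30 ± 0.29), and the cathepsin CTSH differed by 2.67 ± 0.21. LAPTM5, a lysosomal protein of blood cells (2.50), and MAN2B1, lysosomal mannosidase (2.28), followed. Abdominal replicate 1 was the lowest abdominal array for LIPA, LAPTM5 and MAN2B1, as it was for 14 of 15 macrophage markers, of which LAPTM5 is one; the part of macrophages in the lysosomal differences was not tested. The lower members act in autophagy or its control: WIPI1 (-2.67), ATG4A (-0.90), the lysosome regulator TFEB (-0.77) and MAP1LC3B (-0.75) were among them.

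**Figure D4:**
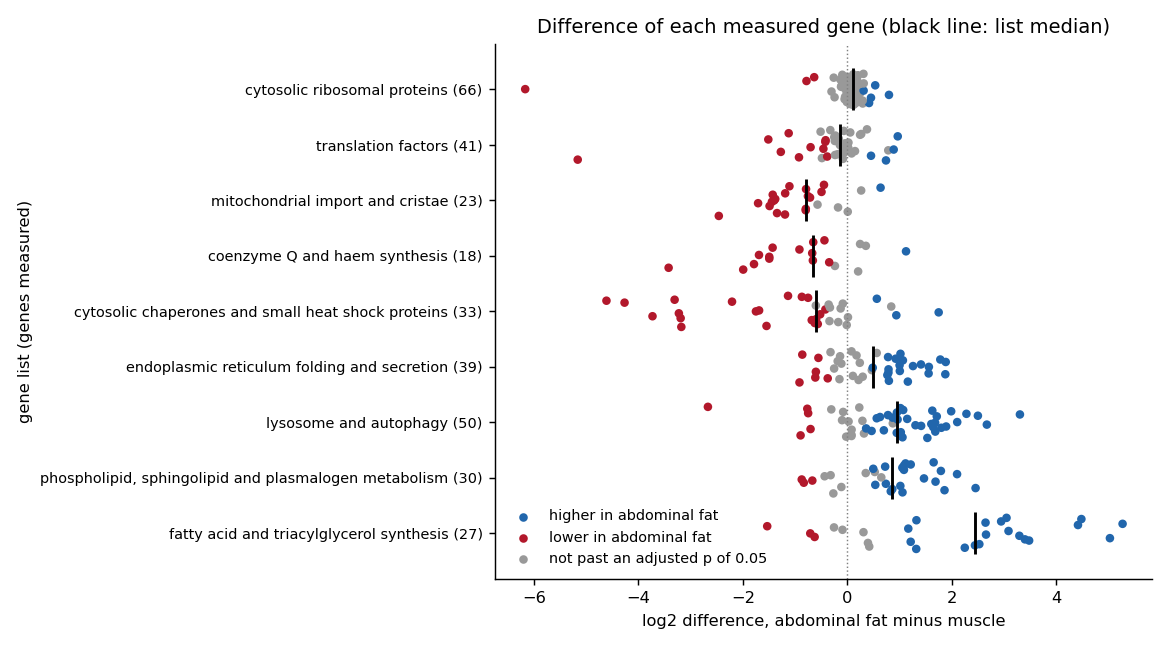
Log2 difference (abdominal fat minus muscle) of every measured gene in 9 lists, coloured by call at an adjusted p of 0.05, with the list median as a black line. Ribosomal proteins cluster at 0 (median 0.11) apart from RPL3L, mitochondrial and coenzyme Q genes lie mostly left of 0, and lysosomal and fat synthesis genes mostly right of it.

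Fat synthesis was higher in abdominal fat, with 19 of 27 genes higher, 3 lower and 5 not called (median 2.44). PCK1, which feeds glycerol backbones, read 7.16, 5.30 and 7.87 in muscle and 11.45, 11.95 and 10.16 in abdominal fat (4.41 ± 0.64). THRSP read 8.81, 7.50 and 9.59 against 13.18, 13.01 and 13.14, and its abdominal values lay near the top of the scale. PCK1 varied more within abdominal fat than THRSP did. The lower members were MOGAT1, a monoacylglycerol acyltransferase (-1.54, near background in both tissues), GPAT4 (-0.71) and the desaturase FADS2 (-0.63), which was no longer called without muscle replicate 3 (-0.48, adjusted p = 0.0792), abdominal replicate 1 (-0.54, adjusted p = 0.0928) or abdominal replicate 2 (-0.60, adjusted p = 0.0718). The list also holds MGAT1, a glycosyltransferase included by the likeness of its symbol; it was not called.

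Of 15 lipid droplet and lipolysis genes, 13 were higher and 2 lower (median 2.01). LIPE, hormone-sensitive lipase, read 7.69, 7.85 and 8.72 in muscle and 11.80, 12.30 and 11.76 in abdominal fat (3.87 ± 0.27). G0S2, which inhibits the lipase that takes the first step of lipolysis (3.43 ± 0.31), and CIDEA (2.70 ± 0.33) were higher as well. The lower members were PLIN5, the droplet coat protein of oxidative tissues, with 8.43, 9.84 and 9.07 in muscle and 5.74, 5.88 and 5.98 in abdominal fat (-3.25 ± 0.39), and PLIN3 (-0.71). FABP4, the adipocyte fatty acid carrier, was already high in muscle, at 12.46, 11.18 and 12.08, and read 13.78, 13.65 and 13.72 in abdominal fat (1.81 ± 0.27).

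Secreted proteins of fat were higher in 14 of 20 cases, lower in 3 and not called in 3 (median 1.92). RBP4, the retinol carrier of blood, read 8.85, 7.58 and 9.05 in muscle and 12.81, 12.36 and 12.47 in abdominal fat (4.05 ± 0.33). APOE, which carries cholesterol, differed by 3.78 ± 0.19. The members toward muscle were SPX, spexin, a peptide hormone (-2.72 ± 0.31), NAMPT, the NAD-producing enzyme also known as visfatin (-0.78), and resistin, RETN (-0.72). NAMPT lost its call without abdominal replicate 2 (-0.71, adjusted p = 0.0633). Resistin was near background in both tissues, and its call was lost without muscle replicate 1 or 2 or abdominal replicate 3 (adjusted p up to 0.112).

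Transcription factors of fat cell formation gave 10 of 17 higher, 1 lower and 6 not called (median 0.64). Behind PPARG came TCF7L2 (2.60 ± 0.23), KLF4 (1.92 ± 0.15) and NFIA, which opens chromatin for brown and white fat genes (1.69 ± 0.24). STAT5B, which relays growth hormone signals, was lower (-1.28 ± 0.21). A second member was lower without abdominal replicate 1, and with centred arrays 8 were higher and 2 lower. Of 19 nuclear receptors, 5 were higher, 5 lower and 9 not called, near the 29.0% higher and 27.1% lower of all genes. NR2F1 (3.23), NR2F2 (1.88) and RXRG (1.37) joined PPARG on the higher side. PPARA, which drives fatty acid oxidation, read 5.67, 5.77 and 7.42 in muscle and 4.44, 4.40 and 4.83 in abdominal fat (-1.73 ± 0.40), and RORA (-1.40), NR1D1 (-0.69) and the thyroid hormone receptor THRA (-0.54) were lower too. NR1D1 lost its call without abdominal replicate 1 (-0.65, adjusted p = 0.0664) or 2 (-0.70, adjusted p = 0.051). With centred arrays the receptors gave 4 higher and 6 lower, and without abdominal replicate 2 only 3 were lower.

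Signals that control lipolysis were mixed, with 8 of 22 higher, 3 lower and 11 not called (median 0.14). Among all genes 29.0% were higher and 27.1% lower. The inhibitory G protein GNAI1 read 8.10, 7.11 and 8.03 in muscle and 12.07, 11.46 and 11.63 in abdominal fat (3.97 ± 0.31), and GNAI3 (1.92) was higher too. The cyclases divided: ADCY2 differed by -6.22 ± 0.29 and ADCY6 by 2.04 ± 0.21. So did the subunits of protein kinase A, with the regulatory PRKAR2B at 2.75 ± 0.25 and the catalytic PRKACA at -0.97 ± 0.16. PDE7B, near background, was called lower (-0.42) and lost the call in 4 of the 6 repeats that left out 1 array, with an adjusted p up to 0.0985 without muscle replicate 1. Insulin and IGF signalling gave 10 of 23 higher, 3 lower and 10 not called (median 0.54). IGF2, a growth factor, read 8.88, 8.77 and 9.45 in muscle and 11.39, 11.43 and 11.44 in abdominal fat (2.39 ± 0.19), and the binding proteins IGFBP4 (2.17), IGFBP3 (2.13) and IGFBP7 (1.79) were higher. GRB10, an adaptor that restrains the insulin receptor (-3.03 ± 0.15), the phosphatase PTPN1 (-1.05) and FOXO4 (-0.74) were lower.

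**Figure D5:**
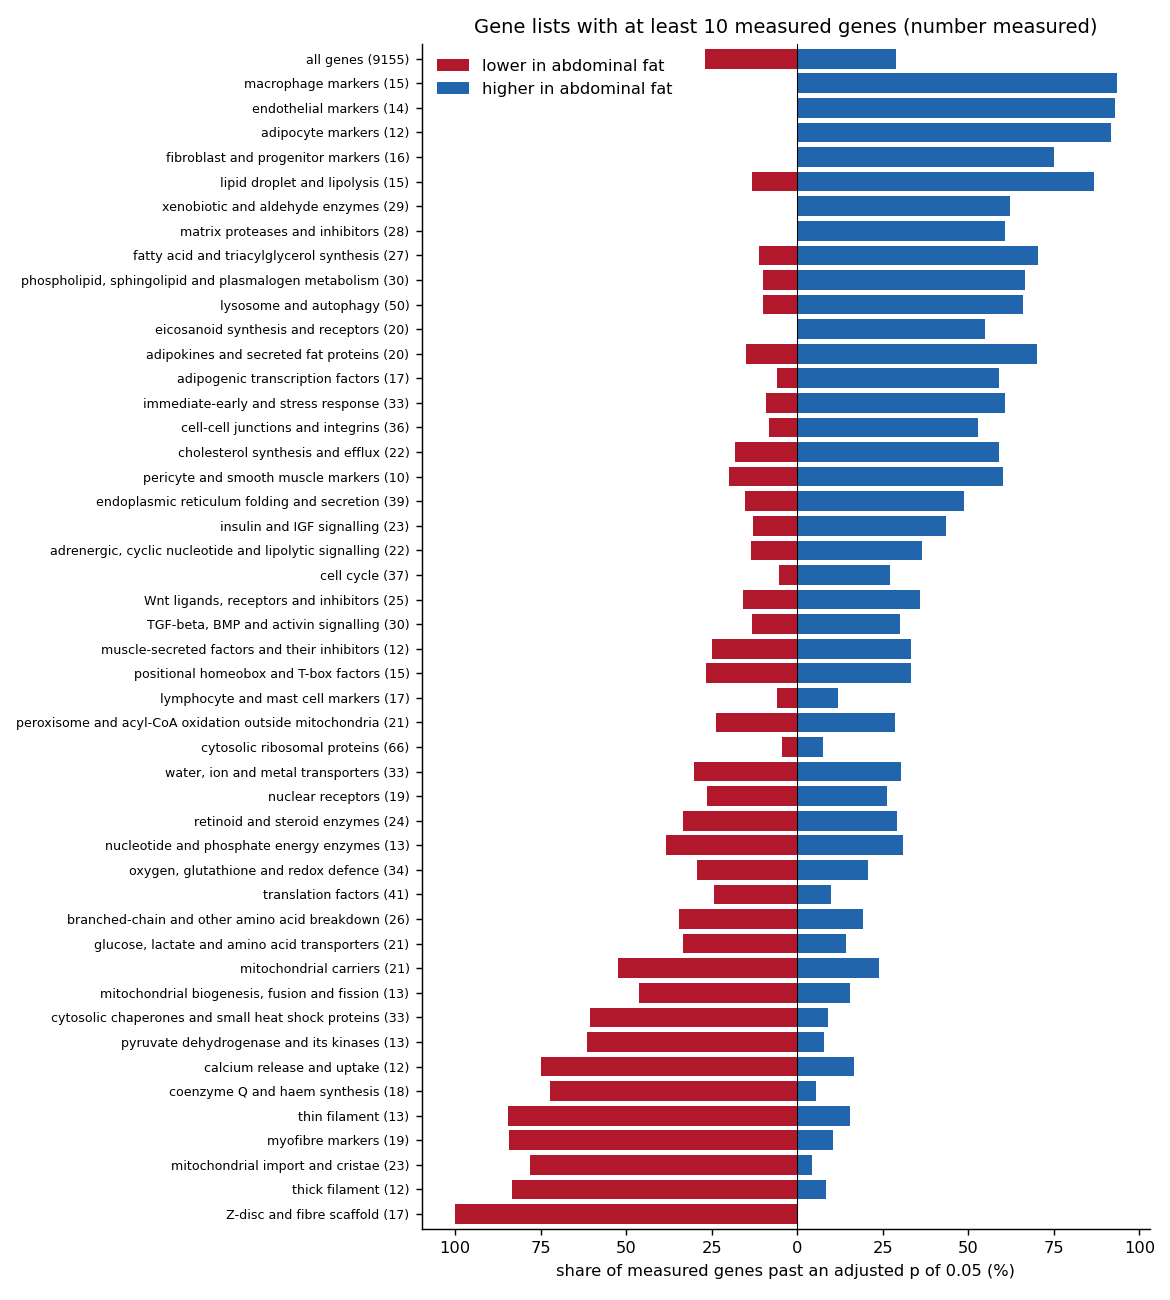
Share of the measured genes of each list called higher (blue, right) or lower (red, left) in abdominal fat, for lists with at least 10 measured genes, with all 9155 genes at the top. All genes were called higher in 29.0% and lower in 27.1% of cases; macrophage, endothelial and adipocyte markers lie almost wholly to the right and Z-disc genes wholly to the left.

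Sterol and membrane lipid enzymes were more often higher in abdominal fat. In cholesterol synthesis and efflux, 13 of 22 were higher, 4 lower and 5 not called (median 1.03). NPC1, which moves cholesterol out of lysosomes (1.98), SQLE, squalene epoxidase (1.93), and NSDHL (1.86) were higher. Some enzymes of the same route went the other way, with MVD (-0.92), MVK (-0.59) and the squalene synthase FDFT1 (-1.01) lower, and the reductase TM7SF2 differed by -1.69. Of 30 phospholipid and sphingolipid genes, 20 were higher, 3 lower and 7 not called (median 0.84). CERS2, which makes ceramides with very long chains, read 7.45, 7.37 and 7.80 in muscle and 9.99, 10.15 and 9.84 in abdominal fat (2.45 ± 0.15), and PEMT, which methylates phosphatidylethanolamine, differed by 2.10 ± 0.25. The lower members were GNPAT (-0.88) and FAR1 (-0.67), both of plasmalogen synthesis, and the cardiolipin synthase CRLS1 (-0.84), whose call was lost in 4 of the 6 repeats that left out 1 array, with an adjusted p up to 0.0934 without muscle replicate 1.

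No eicosanoid gene was called lower: 11 of 20 were higher and 9 not called (median 1.30). The epoxide hydrolases EPHX1 (3.05 ± 0.29) and EPHX2 (2.75 ± 0.27) and the prostaglandin receptor PTGER4 (2.32 ± 0.28) led, and PTGDS, prostaglandin D synthase, read 8.64, 8.60 and 9.31 in muscle and averaged 11.16 in abdominal fat. Of 29 xenobiotic and aldehyde enzymes, 18 were higher and 11 not called, and 1 was called lower without muscle replicate 3. CYB5A, the electron donor of P450 enzymes, read 7.12, 7.29 and 7.60 in muscle and 10.71, 10.03 and 10.57 in abdominal fat (3.10 ± 0.26), and xanthine dehydrogenase, XDH, differed by 2.66 ± 0.23.

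Retinoid and steroid enzymes did not lean clearly, with 7 of 24 higher, 8 lower and 9 not called, 5 lower without any 1 abdominal array, and 8 higher and 6 lower after quantile normalization. HSD17B4 (1.69) and HSD17B11 (1.65) were higher, and AKR1C4 (-1.76), AKR1B1 (-1.59) and HSD17B8 (-1.58) lower. Peroxisomal genes gave 6 of 21 higher, 5 lower and 10 not called. CROT, which carries shortened acyl chains out (1.93), and ACOX3 (1.59) were higher, and the import receptors PEX5 (-1.63) and PEX7 (-1.13), ACOX2 (-1.63) and PHYH (-1.05) were lower. Redox genes gave 10 of 34 lower, 7 higher and 17 not called. Among all genes 29.0% were higher and 27.1% lower, so none of these lists is set apart by its count. Besides myoglobin, the lower members included mitochondrial SOD2, with 11.63, 11.64 and 11.70 in muscle and 10.57, 10.58 and 10.64 in abdominal fat (-1.06 ± 0.11), and KEAP1, which holds the oxidative stress regulator in check (-1.47). Among the higher members, the secreted enzymes GPX3 and SOD3 differed by 1.87 and 1.72, though a second, near-background probe set of SOD3 was called lower (-0.47). The microsomal transferase MGST1 read 9.62, 9.64 and 9.63 against 12.60, 12.65 and 12.80 (3.05 ± 0.11).

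Glucose, lactate and amino acid carriers gave 7 of 21 lower, 3 higher and 11 not called, where 27.1% of all genes were lower and 29.0% higher. SLC2A4, the insulin-responsive glucose transporter, read 7.93, 8.57 and 9.17 in muscle and 7.10, 7.10 and 6.93 in abdominal fat (-1.51 ± 0.29), and SLC16A3, the lactate exporter of fast fibres (-1.55), and the creatine transporter SLC6A8 (-1.13) were lower. The amino acid carriers SLC7A7 (2.19), SLC1A5 (1.91) and SLC1A3 (1.82) were higher. Water, ion and metal carriers gave 10 higher, 10 lower and 13 not called of 33, near the 29.0% and 27.1% of all genes, and with centred arrays 10 higher and 13 lower. The water channels split by member: AQP4, of the fibre membrane, read 8.02, 9.04 and 9.13 in muscle and 2.82, 2.89 and 2.56 in abdominal fat (-5.98 ± 0.26), while AQP3 read 6.10, 5.59 and 5.50 against 8.96, 9.19 and 7.18 (2.71 ± 0.44). The zinc importer SLC39A8 (3.17) and transferrin, TF (3.08), the iron carrier, were higher.

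Among matrix proteases and their inhibitors, 17 of 28 were higher and none lower, with 11 not called (median 1.28). ADAMTS4, which cuts proteoglycans, read 5.32, 5.49 and 6.92 in muscle and 9.82, 10.45 and 10.23 in abdominal fat (4.25 ± 0.59). PLAT, the tissue plasminogen activator (3.40), MMP19 (3.26) and the inhibitor TIMP4 (3.10) were higher as well, and with centred arrays 16 were higher and 1 lower. Junction and integrin genes gave 19 of 36 higher, 3 lower and 14 not called. The leukocyte adhesion molecules VCAM1 (2.91) and ICAM1 (2.74) and the leukocyte integrin ITGB2 (2.81) were higher, and the striated muscle integrin partner ITGB1BP2 was lower (-4.88).

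In TGF-beta and BMP signalling, 9 of 30 were higher, 4 lower and 17 not called (median 0.32), and the share higher was near the 29.0% of all genes. The endothelial co-receptor ENG (2.80), TGFBR2 (2.15), BMP2 (2.13) and ACVRL1 (1.87) were higher. The lower members were small differences: BMPR1A (-0.78), the myostatin receptor ACVR2B (-0.63), BAMBI (-0.51) and SMAD3 (-0.42). BAMBI lost its call without muscle replicate 2 or abdominal replicate 1 or 2 (adjusted p up to 0.0734) and SMAD3 without abdominal replicate 1 or 3 (adjusted p up to 0.0647). Without abdominal replicate 1, 2 members of the list were called lower. Wnt genes gave 9 of 25 higher, 4 lower and 12 not called (median 0.44), where 29.0% of all genes were higher and 27.1% lower. The secreted inhibitor SFRP2 read 6.69, 5.90 and 7.08 in muscle and 10.60, 11.03 and 11.12 in abdominal fat (4.36 ± 0.38), the receptor FZD4 differed by 3.14 ± 0.13 and the transcription factor TCF7 by 2.98 ± 0.31. The amplifier RSPO3 (-2.57), the inhibitor FRZB (-2.36) and the adaptor DVL1 (-1.34) were lower. WNT6, near background, was called lower (-0.51) and lost the call without muscle replicate 1 (adjusted p = 0.0557) or abdominal replicate 2 (adjusted p = 0.0573).

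Markers of cell types other than fibre and fat cell also differed in level. Of 14 endothelial markers, 13 were higher in abdominal fat and 1 was not called (median 2.27), and their summed intensity was 1770.5 to 2081.6 in muscle and 9428.1 to 11216.9 in abdominal fat. PECAM1 read 7.54, 7.75 and 7.52 in muscle and 10.58, 10.62 and 10.38 in abdominal fat (2.92 ± 0.12), and ROBO4 (3.19), PLVAP (3.15) and TEK (2.84) were higher as well. Of 10 pericyte and smooth muscle markers, 6 were higher, 2 lower and 2 not called, led by MCAM (3.49) and the smooth muscle myosin MYH11 (2.52). Their summed intensities overlapped, 12055.4 to 13068.9 in muscle and 11241.5 to 16661.0 in abdominal fat. That sum includes desmin, which muscle fibres make and which averaged 13.07 in muscle and 9.04 in abdominal fat. The sum was not taken without desmin, so the overlap does not show that these cell types gave similar signal in both tissues. Of 16 fibroblast and progenitor markers, 12 were higher and 4 not called (median 1.21), and the sums were 17431.0 to 29316.7 and 54177.5 to 71049.8. VIM (1.72), FN1 (1.80) and COL1A1 (1.63) were among them.

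Macrophage markers were higher in 14 of 15 cases, with 1 not called (median 2.24). CD68 read 5.92, 5.48 and 5.99 in muscle and 8.27, 10.23 and 9.57 in abdominal fat (3.56 ± 0.52), VSIG4 differed by 2.91, CD14 by 2.82 and MSR1 by 2.77. Their summed intensity was 1433.0 to 3225.0 in muscle and 6938.2, 13850.6 and 11324.2 on abdominal arrays 1, 2 and 3. Abdominal replicate 1 was the lowest for 14 of the 15 genes and replicate 2 the highest for 13, and S100A8, an alarmin of myeloid cells, followed with 9.85, 11.17 and 10.99 (muscle 6.53, 7.31 and 6.00; 4.06 ± 0.40). Lymphocyte and mast cell markers were mostly near background, with 14 of 17 not called, 2 higher (KIT 1.84, CD8A 1.06) and 1 lower (CD4 -0.54); without muscle replicate 3, 4 were called lower. Of 6 lymph node genes, 3 were higher, CXCL13 (2.45), CCL21 (1.47) and LTB (0.89), and 1 was also called lower without muscle replicate 3 or with centred arrays. CCL21 lost its call without muscle replicate 2 (adjusted p = 0.0502), muscle replicate 3 (adjusted p = 0.0674) or abdominal replicate 3 (adjusted p = 0.0802).

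Abdominal fat can carry the mesothelium that lines the body cavity. Of 9 measured mesothelial markers, 4 were higher, 1 lower and 4 not called, and the lower one was desmin, which muscle fibres make. UPK1B read 3.66, 2.84 and 2.79 in muscle and 7.90, 3.77 and 7.38 in abdominal fat (3.25 ± 0.86, adjusted p = 0.0113), and KRT19 read 4.55, 4.53 and 4.62 against 8.16, 5.38 and 7.26 (2.37 ± 0.54). MSLN, mesothelin, read 4.13, 4.83 and 4.39 against 6.32, 4.39 and 6.41, so abdominal replicate 2 lay within the muscle range; the difference of 1.26 (adjusted p = 0.0452) lost its call in 5 of the 6 repeats that left out 1 array, with an adjusted p up to 0.162. UPK3B (1.24) lost its call without muscle replicate 2 (1.15, adjusted p = 0.06), abdominal replicate 1 (0.82, adjusted p = 0.0556) or abdominal replicate 3 (1.24, adjusted p = 0.0502). Without desmin the summed intensity was 368.2 to 501.3 in muscle, 1187.6, 505.8 and 905.3 on abdominal arrays 1, 2 and 3, and 554.4 to 604.7 in subcutaneous fat. The sum without desmin was chosen after seeing the data. Abdominal replicate 2 was just above the highest muscle array and below every subcutaneous array, and the other abdominal arrays were above them all. With centred arrays the list gave 3 higher and 3 lower, and without muscle replicate 2, abdominal replicate 1 or abdominal replicate 3 it gave 2 higher in place of 4. Without abdominal replicate 1, 2 members were lower. How these cells bear on other differences was not tested.

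Few blood and nerve markers were measured, 7 in each list. Among all genes 29.0% were called higher and 27.1% lower. HBB, the beta chain of haemoglobin, read 6.70, 5.61 and 5.74 in muscle and 5.92, 6.20 and 5.60 in abdominal fat and was not called (-0.11 ± 0.28, adjusted p = 0.766). Of 7 erythroid and platelet markers, 1 was higher and 2 lower, all near background, and each lost its call without at least 1 array: PF4 (0.96; adjusted p up to 0.0722), HBM (-0.68; adjusted p = 0.0517 without muscle replicate 1) and ALAS2 (-0.45; adjusted p up to 0.17). Of 7 nerve and Schwann cell markers, 3 were lower and 1 higher. UCHL1, a ubiquitin hydrolase of neurons, read 10.22, 9.91 and 10.71 in muscle and 6.56, 6.81 and 6.00 in abdominal fat (-3.82 ± 0.33), and MBP, a myelin protein, was 1.07 higher. STMN2 (-1.14) lost its call in 5 of the 6 repeats that left out 1 array, with an adjusted p up to 0.126 without muscle replicate 2.

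Genes that respond quickly to stimulation were higher in abdominal fat in 20 of 33 cases, lower in 3 and not called in 10 (median 0.83). EGR1 read 8.32, 7.82 and 9.66 in muscle and 11.36, 11.66 and 11.64 in abdominal fat (2.95 ± 0.45), and NFKBIA, the inhibitor of NF-kB (2.46), RHOB (2.25) and MYC (2.20) were higher. MAFF (-1.11), TRIB1 (-1.02) and FOSL2 (-0.35) were lower, and 1 of the list was called lower without muscle replicate 2, abdominal replicate 1 or abdominal replicate 3. TRIB1 and FOSL2 each lost the call in 4 of the 6 repeats that left out 1 array, with an adjusted p up to 0.0718 for TRIB1 and 0.118 for FOSL2. The time from slaughter to freezing, to which such genes can respond, is not given in the sources used here. Cell cycle genes were mostly not called, 25 of 37, with 10 higher and 2 lower, and the share higher was near the 29.0% of all genes. CDKN1C, an inhibitor of cyclin-dependent kinases, read 9.32, 8.86 and 9.50 in muscle and 12.11, 12.38 and 12.54 in abdominal fat (3.12 ± 0.31), and cyclin CCND2 (3.09), CDKN1A (1.86) and cyclin CCND1 (1.57) were higher. The leading members thus comprised 2 inhibitors and 2 D-type cyclins. With centred arrays the list gave 7 higher and 6 lower, and without muscle replicate 3, 5 were lower.

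Positional transcription factors, which keep a record of where a tissue formed, gave 5 of 15 higher, 4 lower and 6 not called. These shares were near the 29.0% higher and 27.1% lower of all genes, and 9 of the 15 were near background in both tissues. MEIS2 read 5.67, 4.45 and 6.18 in muscle and 8.88, 8.14 and 9.03 in abdominal fat (3.25 ± 0.39), HOXA9 read 3.85, 4.18 and 3.68 against 6.11, 5.99 and 5.88 (2.09 ± 0.16), and MEOX2 (1.43) and HOXA5 (1.31) were higher. EMX2 (-1.39), HOXA4 (-1.16), HOXC6 (-0.79) and IRX3 (-0.64) were lower. Neighbouring HOXA genes were therefore called in opposite directions, HOXA4 lower and HOXA5 and HOXA9 higher. Of 7 circadian clock genes, 3 were lower and 4 not called, where 27.1% of all genes were lower. CRY1, a repressor of the clock, was lower by -1.18 ± 0.17. The other called members, RORA and NR1D1, are the receptors described above. Without muscle replicate 3, 1 clock gene was called higher.

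The tissues were most alike in a handful of abundant genes. Among genes with both means over 10, the 5 smallest differences belonged to OAZ1, which restrains polyamine synthesis, RPS29, the initiation factor subunit EIF3CL, the histone H3-3A and RPL19, each between -0.01 and 0.01. OAZ1 read 12.63, 12.64 and 12.52 in muscle and 12.57, 12.63 and 12.57 in abdominal fat. H3-3A read 12.06, 12.12 and 12.16 against 12.16, 12.11 and 12.09. The arrays of both tissues overlapped for all 5. RPL19 had another probe set that differed by -0.90.

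Set beside subcutaneous fat, 11 of the 367 named genes differed between the depots, where 1.50% of all genes did. Most named genes were chosen by their difference from muscle on the same abdominal arrays that enter the depot test. The share among them therefore cannot be weighed against that of all genes. The abdominal and subcutaneous differences from muscle share the muscle arrays, so the test here is abdominal minus subcutaneous fat. SFRP2 was 2.45 ± 0.38 higher in abdominal fat (adjusted p = 0.0248), with means of 10.92 and 8.47 beside 6.56 in muscle. IRX3 averaged 8.54 in muscle, 7.90 in abdominal fat and 10.21 in subcutaneous fat, below muscle in 1 depot and above it in the other on average (abdominal minus subcutaneous -2.31 ± 0.17, adjusted p = 0.00136). CYP2B6, which oxidises drugs and steroids, averaged 5.11 in muscle, 9.13 in abdominal fat and 11.81 in subcutaneous fat (abdominal minus subcutaneous -2.68 ± 0.45, adjusted p = 0.0293). XDH (1.20), the zinc importer SLC39A8 (1.46), PRKAR2B (1.27) and COLQ (1.25) were higher in abdominal fat, and so were the endothelial genes TEK (1.09) and PLVAP (0.97). Leaving out 1 of the 6 fat arrays left between 1 (without subcutaneous replicate 1) and 5 (without subcutaneous replicate 2) of the named genes called, and IRX3 was called in all 6 of these repeats.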

How the data were processed

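RNA of 9 samples was hybridised to 1-colour Affymetrix bovine arrays. The deposited values are linear intensity per probe set, made by the authors with RMA per the submitters' processing notes; which RMA program was used is not given in the sources used here. Taking log2 of each value was the only step before the fit, with no further scaling. Of 24128 probe sets, 112 controls were left out and 24016 tested. A platform table and RefSeq names gave 13292 probe sets 1 gene symbol, 86 several and 10638 none. A gene is represented by its brightest probe set over the 9 arrays. limma 3.58.1 in R 4.3.3 fitted a means model of the 3 tissues to all 9 arrays (6 residual degrees of freedom), with Benjamini-Hochberg adjustment over all probe sets and a threshold of 0.05. The number of arrays limits the precision.

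The members, the 56 gene lists and the tests were chosen with earlier results of these data known. Of 1571 list genes, 1115 were measured. The 367 named genes are the largest differences overall and among genes with both means over 6, up to 4 called members of each list in each direction by size (or the member of smallest p), the isoform pairs, 10 genes chosen for their known roles (LEP, ADIPOQ, PPARG, FABP4, MSLN, UCP1, MSTN, ACTA1, MB and HBB) and the 5 genes most alike. Both rankings by size took only called genes without a provisional symbol whose abdominal and muscle arrays did not overlap. Alternatives covered scaling, filters, probe set choice, thresholds and leaving out each array.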

Additional observations from a re-analysis of the deposited data

Results flagged for a closer look

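The differences from muscle were not equal in the 2 fat depots for 11 named genes, by limma's test of abdominal minus subcutaneous fat over all probe sets (adjusted p of 0.05). CYP2B6 (-2.68) and IRX3 (-2.31) were lower in abdominal than in subcutaneous fat. The tight junction protein F11R (0.65), the GTPase RHOB (0.84), the fenestral diaphragm protein PLVAP (0.97), the angiopoietin receptor TEK (1.09), XDH (1.20), COLQ (1.25), PRKAR2B (1.27), the zinc importer SLC39A8 (1.46) and SFRP2 (2.45) were higher. For each of the 11, every array of 1 depot lay above every array of the other. The 11 were picked by their adjusted p on these same arrays, so this adds no support. The share of all genes without overlap between the depots was not counted. IRX3 kept its call in all 6 repeats that left out 1 fat array, PLVAP and SFRP2 in 2, CYP2B6, RHOB and PRKAR2B in 1, and F11R, TEK, XDH, COLQ and SLC39A8 in 0. These repeats were added after seeing the data. A further limma fit took the number that opens each sample title as a block. Abdominal replicate 3 was the only array with its title number, so in that fit it added nothing to the depot difference. There, 4 of the 11 kept an adjusted p under 0.05, IRX3 (0.0142), SFRP2 (0.0218), XDH (0.0497) and COLQ (0.0498). The other 7 did not, at 0.0538 for CYP2B6 and up to 0.151 for PRKAR2B.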

How the results depend on the processing

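Of 358 named genes called, 332 kept the call without each single array and 207 kept call and direction in every setting tried. The direction reversed for CACNB1 (-1.65), CKM (-2.98) and MYH7 (-2.15) with the mean of all probe sets, and for CACNB1 (-5.69), CKM (-7.70), MYH7 (-7.29) and RPL19 (-0.90) with the most variable probe set. Lower probe sets numbered 3433 with a filter on values over 6 and 3543 at an adjusted p under 0.01. The share called higher was 40.1% with centred arrays. Tested against a log2 difference of 1, 2315 probe sets were called, 1367 higher and 948 lower, with 281 list genes and 9 opposite isoform pairs. Leaving out 1 array gave between 9129 (without abdominal replicate 3) and 12144 (without muscle replicate 3) called probe sets. Of the 367 named genes, those that differed between the depots numbered 17 with the adipose arrays alone, 38 with array weights and 1 to 5 without 1 fat array. The cause of these changes was not tested. The search for promoter motifs was not run.

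The numbers that open the sample titles were not taken as pairing, since no label says that they mark an animal. Muscle and abdominal fat share only 2 of them (correlations of deviations from the tissue means 0.129 and 0.184), as do the depots (0.33 and 0.362). The 3 shared by muscle and subcutaneous fat gave 0.043, 0.149 and 0.09. Arrays with different title numbers gave -0.14 to 0.17 between muscle and abdominal fat and -0.324 to 0.091 between the depots. Between muscle and subcutaneous fat they gave -0.16 to 0.079. Whether the numbers mark animals was not tested. With the title number as a block, where abdominal replicate 3 stood alone in its block, 9502 probe sets were called (5169 higher, 4333 lower). That fit called 630 list genes and 18 opposite isoform pairs, and 6 of the named genes differed between the depots.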
